A study of Mus musculus with 7 samples.

Results

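The 53 genes described here encode the machinery of regulated vesicle exocytosis, from SNAREs, synaptotagmins and complexins to docking factors, vesicle proteins and dynamins. They were found as the rows of the gene table whose name equals a listed symbol, ignoring case, and all 53 were found among 34082 gene names. RNA was measured by sequencing in islets of pregnant mice on day 15 of gestation, with 1 library per mouse. The groups were 4 βPrlR+/− mice and 3 Prlr+/− mice, and the comparison asks how islets differ when 1 allele of the prolactin receptor gene Prlr is missing from the whole body rather than from β-cells. No wild type islets were analysed here.

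Both groups were on a C57BL/6 background, were mated with wild type males at 3 to 4 months of age per the labels (the methods give a later age for the mice studied), and lack a Prlr allele in their β-cells. The βPrlR+/− mice carried a floxed Prlr exon and a tamoxifen-inducible Cre driven by the Pdx1 promoter, which is active in β-cells and in some other islet cells, and they received tamoxifen. Prlr+/− mice carry a null allele in every cell and had neither Cre nor tamoxifen, so that genotype, Cre and tamoxifen differ together and cannot be told apart. The submitters' design text calls the conditional mice homozygous, the methods describe them as heterozygous, and their sample titles read CkoWt, a term that the sources do not explain. The name βPrlR+/− follows the methods, and which description holds was not tested. Mice are called by group and number, which carries no order and no pairing.

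Exocytosis depends on SNARE proteins of the vesicle and of the plasma membrane, which zip together and draw the membranes into fusion. Munc18 and Munc13 proteins prepare the SNAREs, Rab3 and Rab27 with their effectors bring vesicles to the membrane, complexin holds the assembled complex, and synaptotagmins trigger fusion when calcium binds. NSF and its adaptor α-SNAP then take the SNAREs apart, and dynamins cut off the membrane that is retrieved. Neurons and endocrine cells share this plan but rely on different isoforms, and islets hold both: endocrine cells full of hormone granules and the fibres, and at times the cell bodies, of the neurons that innervate them.

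The members were therefore split by what is generally known of each isoform. A neuron type held 13 genes best known from neurons (SYT1, SYT2, CPLX1, RIMS1, SNCB, SNCG, DNM1, DNM3, SV2B, SV2C, SYN1, SYN2 and NCS1). An endocrine type held 24 isoforms known from hormone-secreting cells, many of which, such as SNAP25, VAMP2, SYP and RAB3A, neurons also use in quantity. A widespread type held the other 16. Levels are given as scaled TPM, that is TPM (transcript abundance as a share of the library, corrected for length) after division by a size factor of the mouse, a unit that already allows for transcript length and so permits comparison between genes.

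Levels differed widely between the members. Over the 7 mice the highest mean level was that of SYT13, an atypical synaptotagmin that lacks calcium binding, at 306 scaled TPM. It was followed by CPLX2 at 182, the vesicle membrane protein SYP (synaptophysin) at 153, NAPA (α-SNAP) at 109, the granule-docking protein SYTL4 (granuphilin) at 105 and the vesicle SNARE VAMP2 at 98.1. RAB27A, the small GTPase to which granuphilin binds, stood at 92.0, the membrane SNARE SNAP25 at 87.8, the vesicle SNARE VAMP8 at 77.7 and the Rab effector RPH3AL (Noc2) at 63.0. No neuron-type gene was among these 10. The highest of the neuron type were SNCB at 26.4, SYN1 at 18.0, SNCG at 14.2 and SYN2 at 12.5, and the lowest was RIMS1 at 0.0717, below the mean of 0.5 TPM required for a test, which left 52 members tested.

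**Figure D1:**
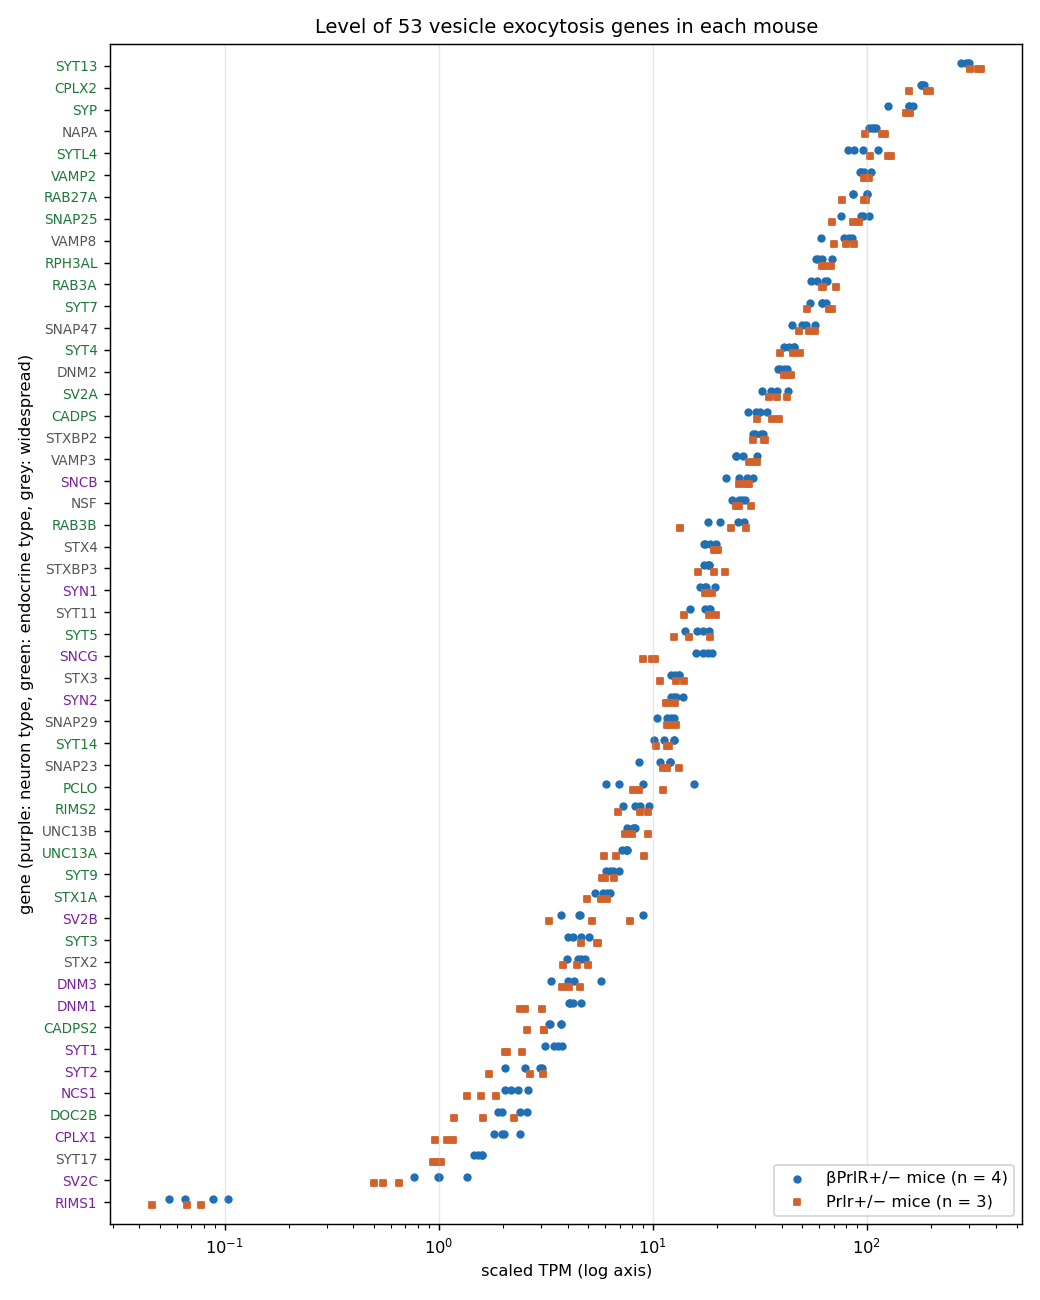
Scaled TPM (log axis) of each of the 53 genes in each mouse, ordered by mean level, with a dot for each of the 4 βPrlR+/− mice and a square for each of the 3 Prlr+/− mice. The upper end, from SYT13 at 306 downward, holds endocrine-type and widespread genes, and the groups lie apart mainly among neuron-type genes under 5 scaled TPM and at SNCG.

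Between the groups, 43 of the 52 tested members had log2 fold changes within 0.2 of 0, and those farther below 0 were mainly neuron-type isoforms. In whole islets, fewer cells of a type and less RNA per cell cannot be told apart. Log2 fold changes were below 0 in 24 of the 52, against 48.3% of all 14840 genes tested (46 and 88.1% with unscaled TPM). Of the 52 members 1 had an adjusted p under 0.05 in limma, SNCG, against 0.0674% of all genes. At an unadjusted p under 0.05, 8 members were lower in Prlr+/− islets, against 2.94% of all genes, and 1, SYTL4, was higher, against 1.58%. In 8 members all Prlr+/− values lay below all βPrlR+/− values (3.11% of all genes) and in 1 member, SYT13, above them (1.84% of all genes). The 8 that were lower by either measure were SNCG, CPLX1, DNM1, SYT1, SV2C, SYT17, NCS1 and CADPS2. Of these, SNCG, CPLX1, DNM1, SYT1, SV2C and NCS1 belong to a list of genes that was drawn up on these same mice, so that their direction is not independent evidence. SYT17 and CADPS2 do not. Of the 46 tested members outside that list, 2 were lower at an unadjusted p under 0.05 in limma (2.94% of all genes) and 1 was higher (1.58%). Counts this small do not set those 46 apart from other genes.

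The median log2 fold change, Prlr+/− over βPrlR+/−, was 0.01 over the 52 tested members and 0.0042 over all genes. It was -0.22 over the 12 tested neuron-type genes (from -0.79 to 0.05), 0.01 over the 24 endocrine-type genes (-0.27 to 0.33) and 0.05 over the 16 widespread genes (-0.36 to 0.16). The neuron-type median depends on which genes pass the filter, and was -0.09 both with RIMS1 added and with a mean of at least 2 TPM required. Not all neuron-type genes were lower. The 6 tested ones that are not in the list drawn up on these mice were SYT2, SNCB, SV2B, SYN1, SYN2 and DNM3. That choice by its making leaves out genes called different. The log2 fold changes of these 6 lay between -0.09 and 0.05 with a median of -0.02. At an unadjusted p under 0.05 in limma 0 of these 6 were called. All genes gave 2.94% lower and 1.58% higher, so this count does not set the 6 apart from other genes.

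**Figure D2:**
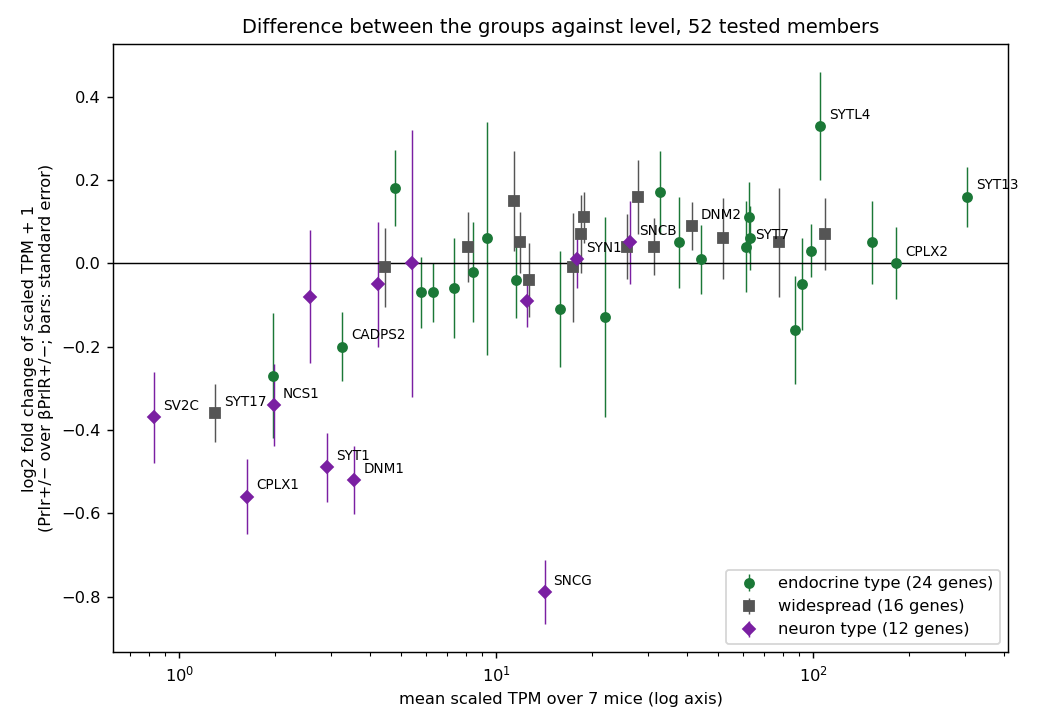
Log2 fold change of scaled TPM + 1, Prlr+/− over βPrlR+/−, with its standard error as a bar, against the mean scaled TPM over 7 mice (log axis) for the 52 tested genes. SNCG stands lowest at -0.79, CPLX1, DNM1 and SYT1 lie between -0.56 and -0.49 at levels under 5, and the 18 genes at 30 or more scaled TPM lie between -0.16 and 0.33.

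The members that were lower were mostly scarce ones. Of the 12 tested members with a mean under 5 scaled TPM, 7 had an unadjusted p under 0.05 and lower values in Prlr+/− islets. Among all 5863 genes tested at that level the share was 5.29%. The 7 were CPLX1, DNM1, SYT1, SV2C and NCS1, which are in the list drawn up on these mice, and SYT17 and CADPS2. The median over the 12 was -0.31 on the log2 scale, against -0.03 over all genes at that level. Because genes of that list are among the 12, this median and the count of 7 are in part set by that choice. The 7 members between 5 and 10 gave 0 such genes (2.10% of all genes at that level), the 15 between 10 and 30 gave 1, SNCG (1.36%), and the 18 at 30 or more gave 0 (0.662%). The methods give the reads per library, but TPM holds no reads per gene, so no counting interval is given at these low levels and the spread between mice is the error used.

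SNCG, γ-synuclein, is a small protein of nerve terminals best known from peripheral and sensory neurons. Islets of the βPrlR+/− mice held 17.1, 19.0, 16 and 18.2 scaled TPM of it, those of the Prlr+/− mice 10.2, 9.03 and 9.97. Every Prlr+/− mouse lay well below every βPrlR+/− mouse, with group means of 17.6 ± 1.32 (SD, n = 4) and 9.74 ± 0.630 (SD, n = 3), a level 44.6% lower. The log2 fold change was -0.79 (SE 0.077, limma adjusted p = 0.0253), and the exact two-sided permutation p was 0.0286, the smallest that 35 splits of the mice allow. The adjusted p depends on the processing. Over 14 alternative settings it ranged from 0.0161 to 0.123 and passed 0.05 in 6, with a log2 fold change between -0.92 and -0.74. Among the settings that leave out a mouse it passed only without βPrlR+/− mouse 3, and lay between 0.0749 and 0.123 without any other mouse. Its relative SNCB, β-synuclein, was at 26.1 ± 3.26 and 26.9 ± 1.45 (log2 fold change 0.05, SE 0.10). SNCG accordingly made up 39.2 to 42.2% of the summed level of these 2 synucleins in βPrlR+/− islets and 24.9 to 28.8% in Prlr+/− islets.

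CPLX1, the complexin best known from synapses, clamps assembled SNAREs until calcium arrives. It was measured at 1.98, 2.41, 2.03 and 1.82 scaled TPM in βPrlR+/− islets and at 1.09, 0.960 and 1.17 in Prlr+/− islets. The groups did not overlap and the mean was 47.9% lower in Prlr+/− islets, at 1.07 ± 0.105 against 2.06 ± 0.247. The log2 fold change was -0.56 (SE 0.090, limma adjusted p = 0.188). A smaller pseudocount, 0.1, gave -0.88.

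DNM1 is the neuronal dynamin, a GTPase that pinches off recycling vesicles. Its 4 βPrlR+/− levels were 4.12, 4.60, 4.06 and 4.23 scaled TPM and its 3 Prlr+/− levels 3.03, 2.54 and 2.41. Again the groups were apart, with a mean 37.5% lower in Prlr+/− islets and a log2 fold change of -0.52 (SE 0.081, limma adjusted p = 0.167). The gene has 21 annotated transcripts, and the one with the largest share held between 28.5 and 57.4% of the gene's level depending on the mouse. Of the 2 transcripts tested, the more abundant one overlapped between the groups (1.16 to 2.45 against 1.24 to 1.38 scaled TPM) and the other did not (log2 fold changes -0.32 for both, adjusted p = 1.0).

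SYT1 is the fast calcium sensor of synaptic vesicles. It stood at 3.13, 3.60, 3.77 and 3.45 scaled TPM in βPrlR+/− islets and at 2.44, 2.04 and 2.09 in Prlr+/− islets, a mean 37.2% lower with no overlap. The log2 fold change was -0.49 (SE 0.082, limma adjusted p = 0.229). Of its 10 annotated transcripts 2 were high enough to test, and both were lower in all 3 Prlr+/− mice than in any βPrlR+/− mouse (log2 fold changes -0.35 and -0.36, adjusted p = 1.0 for each over all transcripts). Over all members 132 of 383 annotated transcripts were tested in limma, of which 0 had an adjusted p under 0.05 (0.021% of all transcripts) and 14 an unadjusted p under 0.05 (3.91% of all transcripts). For CPLX1, DNM1 and SYT1 the exact permutation p was 0.0286, as for SNCG.

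SV2C, a glycoprotein of synaptic vesicles, and NCS1, a small calcium-binding protein of nerve cells, were lower with wider spread. The levels of SV2C were 0.768, 1.0, 0.991 and 1.36 scaled TPM in βPrlR+/− islets and 0.499, 0.656 and 0.549 in Prlr+/− islets. Its log2 fold change was -0.37 (SE 0.11, limma adjusted p = 0.901), or -0.74 with a pseudocount of 0.1, and its exact permutation p was 0.0571. NCS1 was at 2.34, 2.17, 2.61 and 2.05 scaled TPM against 1.58, 1.86 and 1.35, with a log2 fold change of -0.34 (SE 0.099, limma adjusted p = 0.807). In both genes the highest Prlr+/− mouse came close to the lowest βPrlR+/− mouse.

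SYT17, a synaptotagmin relative without a membrane-spanning segment that is found in many tissues, had little spread within the groups. It was at 1.53, 1.46, 1.59 and 1.59 scaled TPM in βPrlR+/− islets and at 1.03, 0.942 and 0.982 in Prlr+/− islets, 36.2% lower on average. The log2 fold change was -0.36 (SE 0.070, limma adjusted p = 0.356), or -0.60 with a pseudocount of 0.1. Its 6 annotated transcripts were split unevenly, the only one high enough to test holding 0.652 to 1.16 scaled TPM in βPrlR+/− islets and 2.42e-06 to 0.553 in Prlr+/− islets. CADPS2, a CAPS protein that primes dense-core vesicles, was at 3.28, 3.32, 3.73 and 3.73 against 3.12, 2.59 and 3.11. That difference of 16.4% left only a narrow gap between the groups, and the log2 fold change was -0.20 (SE 0.082, limma adjusted p = 1.0). Its unadjusted p was under 0.05 in 5 of 14 alternative settings, and its log2 fold change ran from -0.31 with unscaled TPM to -0.13 without Prlr+/− mouse 2. The closely related CADPS, a more abundant gene, was at 31.1 ± 2.78 and 35.2 ± 4.09, with a log2 fold change of 0.17 (SE 0.10).

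**Figure D3:**
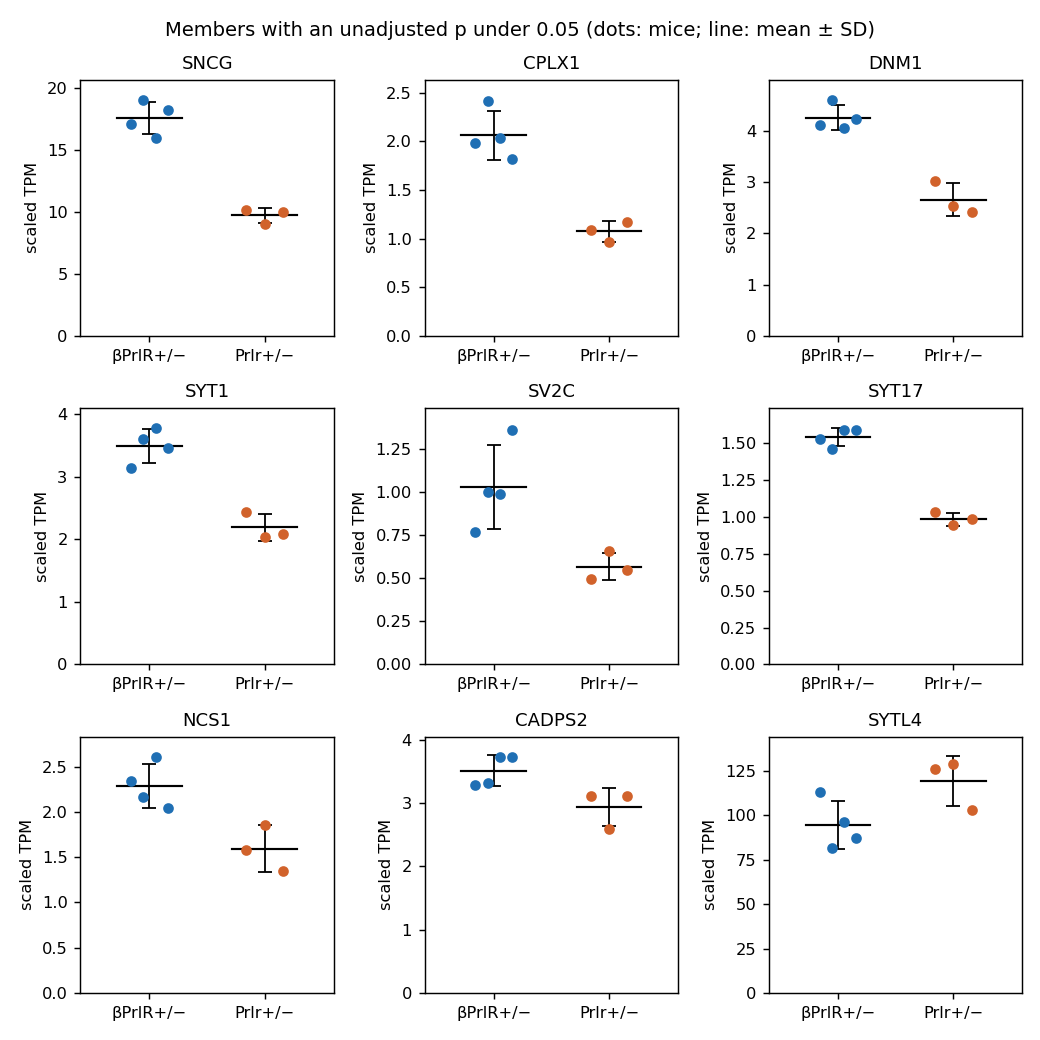
Scaled TPM in each mouse for the 9 genes with an unadjusted limma p under 0.05, with the mean and SD as lines. In 8 panels all 3 Prlr+/− mice lie below all 4 βPrlR+/− mice, while the SYTL4 panel shows higher Prlr+/− values that overlap the βPrlR+/− values.

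On the other side were SYTL4 and SYT13, both abundant in islet endocrine cells. SYTL4, which holds insulin granules at the membrane before fusion, was at 113, 81.9, 96.4 and 87.5 scaled TPM in βPrlR+/− islets and at 126, 129 and 103 in Prlr+/− islets. βPrlR+/− mouse 1 lay above Prlr+/− mouse 3, so the groups overlapped. The log2 fold change was 0.33 (SE 0.13, limma adjusted p = 1.0, exact permutation p = 0.114). Its unadjusted p was under 0.05 in 8 of 14 alternative settings, and unscaled TPM gave a log2 fold change of 0.19. SYT13 was at 289.8, 300.4, 276 and 297 against 331, 304 and 341, without overlap, with a log2 fold change of 0.16 (SE 0.072, limma adjusted p = 1.0). This rests on the scaling, because unscaled TPM, which move the median over all genes to -0.12, gave SYT13 a log2 fold change of 0.01.

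The prolactin receptor signals through STAT proteins, so the bases before the transcription start of the members were searched for the STAT element TTCNNNGAA, the cAMP response element TGACGTCA and TTCAGCACC, the left part of the RE1 element through which neuronal genes are silenced outside neurons, on both strands. RefSeq promoter sequences (GRCm38.p6, 250 bases before the start) were matched for 42 of the 53 members, with 51 promoters in all, and SNAP25, SYT5, DOC2B, STX4, SYT13, SYT7, VAMP2, SYT17, RIMS2, VAMP3 and SYT4 had no entry. The STAT element was found in 4 of these 51 promoters, those of RPH3AL, SYN2, SYTL4 and VAMP8, and in 7.02% of all 32851 promoters. The cAMP response element was found in 2 of the 51, STXBP3 and SYN1, and in 1.55% of all promoters, and the RE1 part in 1, SYN1, and in 0.301%. The promoters of the 3 neuron-type genes with the smallest limma p, of SYTL4 and of SYN1 run from 5′ to 3′ on the gene's strand, with matches in capitals. SNCG lies on the minus strand at chr14:34374670-34374919, CPLX1 on the minus strand at chr5:108550028-108550277, DNM1 on the minus strand at chr2:32353330-32353579, SYTL4 on the minus strand at chrX:133981813-133982062 and SYN1 on the minus strand at chrX:20920919-20921168.
SNCG: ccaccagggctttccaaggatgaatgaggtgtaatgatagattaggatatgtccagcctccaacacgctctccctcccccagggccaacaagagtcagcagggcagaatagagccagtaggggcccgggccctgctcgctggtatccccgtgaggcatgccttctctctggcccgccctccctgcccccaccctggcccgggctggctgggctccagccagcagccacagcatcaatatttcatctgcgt
CPLX1: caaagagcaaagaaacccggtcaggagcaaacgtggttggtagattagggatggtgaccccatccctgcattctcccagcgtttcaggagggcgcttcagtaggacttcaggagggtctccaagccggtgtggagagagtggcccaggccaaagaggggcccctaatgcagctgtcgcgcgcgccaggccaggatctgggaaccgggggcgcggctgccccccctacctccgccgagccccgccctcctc
DNM1: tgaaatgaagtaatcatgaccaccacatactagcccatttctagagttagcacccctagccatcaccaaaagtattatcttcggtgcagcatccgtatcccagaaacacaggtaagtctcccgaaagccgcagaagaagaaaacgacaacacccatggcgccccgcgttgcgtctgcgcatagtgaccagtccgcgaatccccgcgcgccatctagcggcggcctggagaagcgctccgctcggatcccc
SYTL4: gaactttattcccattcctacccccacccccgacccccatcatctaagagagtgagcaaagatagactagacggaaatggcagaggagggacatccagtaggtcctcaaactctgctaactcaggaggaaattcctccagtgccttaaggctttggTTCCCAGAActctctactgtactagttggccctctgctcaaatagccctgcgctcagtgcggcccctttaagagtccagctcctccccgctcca
SYN1: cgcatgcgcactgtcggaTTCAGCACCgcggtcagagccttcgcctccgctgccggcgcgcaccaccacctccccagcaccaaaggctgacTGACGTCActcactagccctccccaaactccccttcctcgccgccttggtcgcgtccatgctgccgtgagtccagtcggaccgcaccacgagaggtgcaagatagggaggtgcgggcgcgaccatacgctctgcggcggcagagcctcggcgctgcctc
The first 3 hold none of the 3 motifs in this window. SYTL4 holds 1 STAT element, and SYN1, a neuron-type gene with a log2 fold change of 0.01 (17.9 ± 1.28 and 18.1 ± 0.738), holds the RE1 part and the cAMP response element. CpG pairs numbered 7 in the SNCG window, 15 in CPLX1, 20 in DNM1, 5 in SYTL4 and 27 in SYN1, where the median was 14 over the members' promoters and 6 over all promoters.

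Genes were set against a paralog within the same mouse in 8 pairs, of which 5 (SYT1, CPLX1, DNM1, SV2C and RIMS1) lead with a neuron-type gene. Because 1 is added to each value, such a ratio removes the size factor only in part where a gene is scarce. With unscaled TPM the log2 ratio of CPLX1 to CPLX2 differed by -0.50 and that of SV2C to SV2A by -0.33. SYT7 is the calcium sensor of slower release and of insulin granules. It was at 54.3, 61.9, 61.6 and 64.2 scaled TPM in βPrlR+/− islets and at 66.6, 52.3 and 68.6 in Prlr+/− islets, so that SYT1 made up 5.10 to 5.77% of the sum of SYT1 and SYT7 in βPrlR+/− islets and 2.95 to 3.75% in Prlr+/− islets. The log2 ratio of SYT1 to SYT7 differed by -0.53 (exact permutation p = 0.0286). CPLX2, the complexin of endocrine cells, was at 181, 184, 179 and 180.1 against 190.5, 158 and 198, with a log2 fold change of 0.00 (SE 0.086). CPLX1 thus held 1.0 to 1.29% of both complexins in βPrlR+/− islets and 0.571 to 0.603% in Prlr+/− islets, a difference in log2 ratio of -0.56 (exact permutation p = 0.0286), or of -0.88 with a pseudocount of 0.1. DNM2, the dynamin of most cells, was at 42.4, 39.2, 40.8 and 38.6 against 43.2, 44.3 and 40.9. DNM1 held 8.86 to 10.5% of the sum of DNM1 and DNM2 in βPrlR+/− islets and 5.43 to 6.55% in Prlr+/− islets, a difference in log2 ratio of -0.61 (exact permutation p = 0.0286). In these 3 pairs the shares did not overlap between the groups, and the partners SYT7, CPLX2 and DNM2 themselves had log2 fold changes of 0.04, 0.00 and 0.09. SYT1, CPLX1 and DNM1 belong to the list drawn up on these same mice. The 3 ratios and their p-values largely restate the differences of those genes and are not independent evidence.

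In the remaining 5 of the 8 pairs the log2 ratios overlapped between the groups. SV2A, the SV2 protein of endocrine cells and most synapses, was at 38.1, 43.0, 32.5 and 35.8 scaled TPM against 42.2, 35 and 38.2, and the log2 ratio of SV2C to SV2A differed by -0.41 (exact permutation p = 0.171), or by -0.79 with a pseudocount of 0.1 (exact permutation p = 0.0571). The share of SV2C itself was 1.97 to 3.67% against 1.17 to 1.84%, without overlap. UNC13A and UNC13B encode Munc13 proteins that open syntaxin for SNARE assembly. UNC13A was at 7.57, 7.48, 7.59 and 7.17 against 5.92, 9.06 and 6.70, UNC13B at 8.08, 7.54, 8.23 and 8.13 against 7.42, 9.45 and 7.96, and their log2 ratio differed by -0.10 (exact permutation p = 0.229). That difference was -0.05 without Prlr+/− mouse 1 and -0.16 without Prlr+/− mouse 2. SNAP25 was at 75.8, 93.5, 102 and 96.3 against 85.9, 68.5 and 92.3, and its widespread relative SNAP23 at 12, 12, 8.62 and 10.8 against 11.2, 13.3 and 11.7. Their log2 ratio differed by -0.31 (exact permutation p = 0.343) and by -0.12 without Prlr+/− mouse 2. Rab3 proteins sit on granules and recruit effectors. RAB3A was at 65.0, 63.8, 54.8 and 58.6 against 62.4, 61.9 and 71.8, RAB3B at 18.2, 26.8, 20.6 and 25.1 against 23.1, 13.4 and 27.2, and the log2 ratio of RAB3B to RAB3A differed by -0.24 (exact permutation p = 0.457) and by 0.01 without Prlr+/− mouse 2. RIM proteins hold docked vesicles near calcium channels. RIMS1 was at 0.0881, 0.0549, 0.104 and 0.0657 against 0.0666, 0.0774 and 0.0457 and RIMS2 at 7.28, 8.23, 9.63 and 8.71 against 9.52, 6.88 and 8.72, and at so low a level of RIMS1 the log2 ratio, with 1 added to each value, mainly follows RIMS2 (exact permutation p = 0.971). After Benjamini-Hochberg adjustment over the 8 pairs the 3 smallest exact permutation p-values came to 0.0762 each. That adjustment does not allow for the choice of SYT1, CPLX1 and DNM1 on these same mice. SV2C was chosen in the same way.

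**Figure D4:**
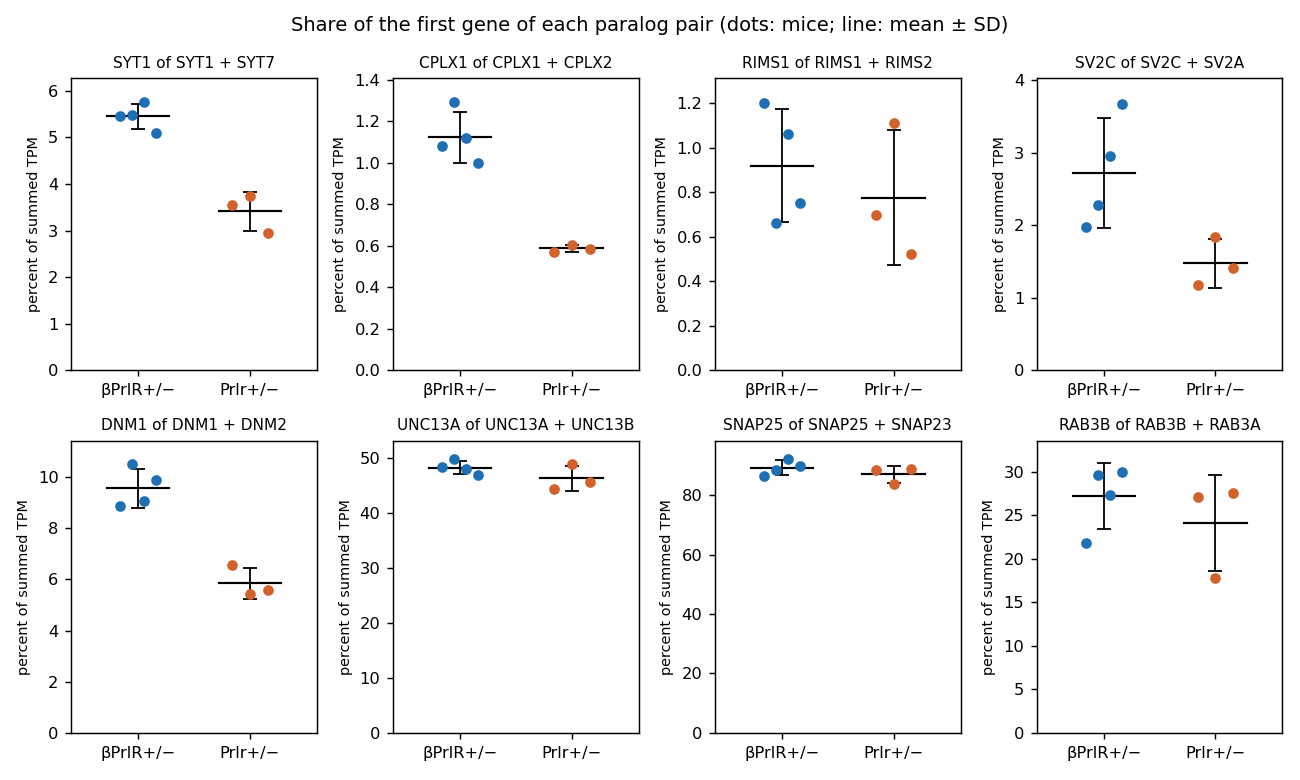
Share of the first gene in the summed scaled TPM of each of 8 paralog pairs, in percent, with a dot per mouse and lines for mean and SD. The shares of SYT1, CPLX1, DNM1 and SV2C, genes of the list drawn up on these mice, lie lower in all 3 Prlr+/− mice. The other 4 panels overlap.

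No core SNARE differed beyond the spread between mice. All 11 had log2 fold changes between -0.16 and 0.16, with a median of 0.05. At an unadjusted p under 0.05 in limma 0 of the 11 were called. All genes gave 2.94% lower and 1.58% higher, so this count does not set the 11 apart from other genes. VAMP2, the vesicle SNARE of granules and synapses, was at 93.7, 105, 93.0 and 97.0 scaled TPM in βPrlR+/− islets and at 99.5, 96.5 and 102 in Prlr+/− islets (log2 fold change 0.03, SE 0.064). VAMP8, a vesicle SNARE of endosomes and granules, was at 84.9, 82.2, 61.1 and 78.2 against 80.1, 70.2 and 87.3. VAMP3, SNAP29 and SNAP47 gave log2 fold changes of 0.16, 0.05 and 0.06. Among the 4 syntaxins listed, which anchor the complex in the plasma membrane, STX4 had the highest mean at 18.9, followed by STX3 at 12.7, STX1A at 5.79 and STX2 at 4.44. Their log2 fold changes were 0.11 for STX4 (SE 0.062), -0.04 for STX3 (SE 0.088), -0.07 for STX1A (SE 0.086) and -0.01 for STX2 (SE 0.095).

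Among regulators and recycling factors, NAPA was at 102, 110.1, 106 and 108 scaled TPM against 117, 98.0 and 122, and NSF at 25.5 ± 1.51 and 26.2 ± 2.39. The Munc18 proteins STXBP2 and STXBP3, which chaperone syntaxins, were at 31.0 ± 1.54 and 32.0 ± 2.24 and at 18.0 ± 0.514 and 19.1 ± 2.75. None of these 4 genes had groups that lay apart, as 4.95% of all genes did. In the docking machinery RAB27A was at 85.7, 100.4, 86.1 and 100.4 against 96.7, 76.1 and 98.8 (log2 fold change -0.05) and RPH3AL at 69.0, 61.7, 57.9 and 59.4 against 68.3, 61.9 and 63.1 (0.06). PCLO, piccolo, a large scaffold that senses calcium in β-cells, varied widely, from 6.02 to 15.5 within the βPrlR+/− group and from 8.11 to 11.2 in the Prlr+/− group.

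None of the other synaptotagmins had an unadjusted p under 0.05 in limma, and neither did DOC2B. Over all genes 2.94% were lower and 1.58% higher, so this does not set them apart from other genes. The 11 synaptotagmins summed to a mean of 459 scaled TPM in βPrlR+/− islets and 493 in Prlr+/− islets, of which SYT13 held 62.2 to 65.2% and 64.8 to 67.7%, SYT7 12.2 to 13.9% and 11.7 to 13.2%, and SYT1 0.704 to 0.850% and 0.402 to 0.478%. SYT4 was at 43.9 ± 2.31 and 44.3 ± 4.57, SYT11 at 17.4 ± 1.64 and 17.4 ± 2.99 and SYT5 at 16.4 ± 1.84 and 15.3 ± 3.02. SYT9, a calcium sensor of insulin granules, was at 6.48 ± 0.381 and 6.14 ± 0.410. SYT14, SYT3 and SYT2 had log2 fold changes of -0.04, 0.18 and -0.08. DOC2B, a high-affinity calcium sensor of granule fusion, was at 1.90, 2.59, 1.97 and 2.39 against 1.62, 1.18 and 2.24, with overlapping groups and a log2 fold change of -0.27 (SE 0.15, exact permutation p = 0.143).

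Of the vesicle proteins SYP was at 157, 165, 125 and 157 scaled TPM against 152, 154 and 159, a log2 fold change of 0.05 (SE 0.10). SYN2, a synapsin that tethers vesicles to the cytoskeleton, was at 12.8 ± 0.674 and 12 ± 0.636. SV2B ranged from 3.71 to 8.97 in βPrlR+/− islets and from 3.28 to 7.85 in Prlr+/− islets, and DNM3, a dynamin of neurons, from 3.34 to 5.74 and from 3.77 to 4.56. The spread of SV2B within each group exceeded any difference between them.

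Marker genes of several cell types were read beside the members, and their part in these results was not tested. Of 11 general neuron markers picked on these same mice (among them STMN2, PRPH, TUBB3 and UCHL1), all 11 were lower (48.3% of all genes). Of these, 3 had an adjusted p under 0.05 in limma (0.0674% of all genes). The sum of the 11 was 91.7 to 108 scaled TPM in βPrlR+/− islets and 62.9 to 68.8 in Prlr+/− islets. The 11 were picked from genes called different on these mice, so their counts, sums and p-values are not independent evidence. STMN2, a tubulin-binding protein of axons, fell by 0.81 on the log2 scale (SE 0.069, limma adjusted p = 0.0173), PRPH, the intermediate filament peripherin of peripheral neurons, fell by 0.76 (SE 0.070, adjusted p = 0.0242), and THY1, a surface protein of neurons, fell by 0.73 (SE 0.081, adjusted p = 0.0410). Of 17 further neuron markers not in that list 13 were tested and 9 were below 0 (48.3% of all genes), with a median of -0.21. At an unadjusted p under 0.05 in limma 4 of them were lower and 1 was higher, against 2.94% and 1.58% of all genes. Their sums of 212 to 357 and 179.8 to 217 overlapped. VIP alone ranged from 43.1 to 158 scaled TPM over the mice and so weighs heavily in these sums. GAP43, a growth cone protein, was at 5.21 ± 0.381 and 3.85 ± 0.691, whereas ELAVL4, an RNA-binding protein, was at 10.8 ± 0.415 and 13.3 ± 1.48.

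The 11 tested Schwann and glia markers had a median of -0.27 on the log2 scale, with sums of 37.2 to 42.4 and 31.2 to 40.2. At an unadjusted p under 0.05 in limma 1 of the 11 was lower, against 2.94% of all genes. The 8 endothelial markers were all below 0 (median -0.24), with sums of 185 to 217 and 154 to 188. At the same threshold 5 of the 8 were lower, again against 2.94% of all genes. By sign, β-cell markers ran the other way, with 9 of 11 above 0 and a median of 0.29. Only 1 of the 11, MAFA, was higher at that threshold (1.58% of all genes). The 2 groups' sums overlapped (451680 to 599329 and 582618 to 715498). The 6 α-cell markers were all below 0 (median -0.20), with sums of 15228 to 23087 and 15256 to 15769. Of the δ- and PP-cell markers 4 of 5 were below 0 (median -0.22), with sums of 18227 to 21372 and 15788 to 17493 that did not overlap. At that threshold 1 α-cell marker, TTR, and 0 of the δ- and PP-cell markers were lower. Markers of acinar cells, the exocrine tissue that surrounds islets, summed to 1640 to 15128 and 4540 to 12948 (median 0.09 over 7 genes). No marker of these lists that the table holds was at 0 in every mouse.

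**Figure D5:**
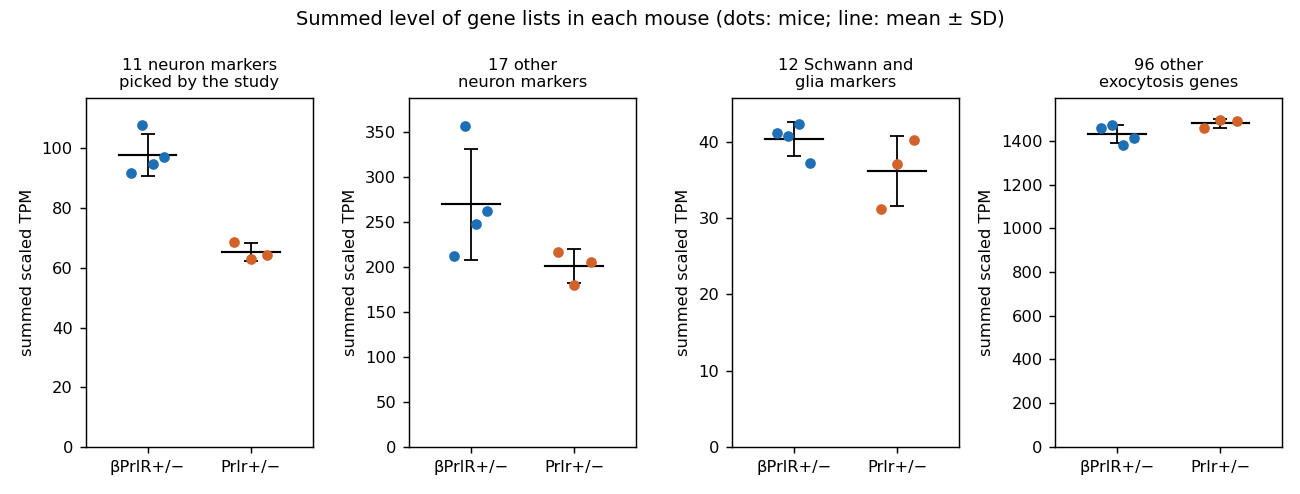
Summed scaled TPM in each mouse of 4 gene lists, with mean and SD as lines: neuron markers picked on these mice, further neuron markers, Schwann and glia markers, and other exocytosis genes. The first panel alone of these 4 shows groups that do not overlap, at 91.7 to 108 and 62.9 to 68.8. Its genes were picked from those called different on these mice, so this gap is not independent evidence.

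A wider set of exocytosis genes not among the members was counted in the same fit. Of 98 listed, 96 were in the table and 81 were tested, of which 39 were below and 42 above 0, with a median of 0.01. An adjusted p under 0.05 in limma was found for 0 of them (0.0674% of all genes). At an unadjusted p under 0.05, 6 were lower and 1 was higher, where all genes gave 2.94% and 1.58%. The 6 were SYT6 (log2 fold change -0.46), NAPB, the brain form of the SNAP adaptor (-0.41), SYT16 (-0.40), RAB3C (-0.39), the exocyst subunit EXOC4 (-0.34) and the endocytic adaptor SGIP1 (-0.33), the last of which is also in the list drawn up on these mice. The higher gene was STXBP5L, a tomosyn (0.29). The sums of the whole set were 1383 to 1471 and 1457 to 1494 scaled TPM.

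As to the libraries, insulin transcripts took 46.1 to 53.2% of TPM in βPrlR+/− islets and 54.0 to 58.9% in Prlr+/− islets, and size factors ran from 0.882 to 1.11. Correlations between libraries lay between 0.965 and 0.981. PRLR itself was at 55.7, 38.4, 47.3 and 38.8 scaled TPM in βPrlR+/− islets and at 36.1, 51.1 and 35.1 in Prlr+/− islets (log2 fold change -0.15, adjusted p = 1.0), so its level does not check the labels of the groups.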

How the data were processed

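Islet RNA of 4 βPrlR+/− and 3 Prlr+/− mice was sequenced after poly(A) selection and directional library preparation, and reads were assigned to mouse RefSeq transcripts with Kallisto 0.42.4, a version taken from the submitters' processing notes. The genome build is not given in the sources used here. The deposited gene and transcript values are TPM made by the authors, since every column sums to 1000000 within rounding, although the methods name FPKM. The methods give a total of reads per library, but the reads per gene cannot be read from TPM, so no counting interval is given.

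Values were divided by size factors per mouse, computed as the median ratio to the geometric mean over genes. Genes with a mean of at least 0.5 TPM (14840) were tested with limma 3.58.1 in R 4.3.3 (trend) on log2(scaled TPM + 1), with Benjamini-Hochberg adjustment over all of them and 0.05 as the threshold. Fold changes on this scale understate the change of low genes. Single genes and paralog ratios were also tested with a two-sided exact permutation test over 35 splits in Python 3.11.15. The procedure was tested on simulated data, and no result given here rests on that test. Nothing in the labels says that mice came from separate litters, so p-values measure the spread between these mice. The members, their types, the pairs and the marker lists were chosen with earlier results of these data known. An item of the marker lists is not reported here and was left out of their counts and sums. Every mouse's value is given for members with an unadjusted p under 0.05, for all genes of the 8 pairs and for the 10 members with the highest mean. SYT13 is among these, and DOC2B and single markers were named after their values were seen. Alternatives were TPM as deposited, upper-quartile scaling, pseudocounts of 0.1 and 0.5, all genes above 0, a mean of at least 2 TPM, robust variance moderation, and leaving out each mouse.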

Additional observations from a re-analysis of the deposited data

Results flagged for a closer look

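SV2B, a vesicle glycoprotein best known from neurons, had a single mouse far from its group. Its level was 8.97 scaled TPM in βPrlR+/− mouse 2 and 3.71, 4.55 and 4.54 in the other βPrlR+/− mice. The gap to the nearest mouse was 0.839 of the range of the group, above Dixon's critical value for 4 samples. SV2B was the single member of 53 to pass this limit in the βPrlR+/− group, the Prlr+/− group being too small for it, and chance alone passes about 1 in 20 groups.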

How the results depend on the processing

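Against 10 genes past the adjusted threshold, upper-quartile scaling gave 6, a pseudocount of 0.1 gave 18, 0.5 gave 17, all genes above 0 gave 4, and leaving out a mouse 2 to 13. Against 1 member (SNCG), upper-quartile scaling and all genes above 0 gave 0, with adjusted p = 0.0509 and 0.0662 in limma, and leaving out a mouse 0 to 1 (1 only without βPrlR+/− mouse 3). Members whose groups did not overlap numbered 9 (4.95% of all genes), 9 with TPM as deposited (8.71%), 6 with a mean of at least 2 TPM (3.92%), and 9 to 16 without a mouse: 9 without βPrlR+/− mouse 2, 3 or 4 (7.02, 7.49 and 6.51%), 11 without Prlr+/− mouse 1 (10.8%), 16 without βPrlR+/− mouse 1 (12.8% of all genes) or Prlr+/− mouse 2 (16.2%) and 14 without Prlr+/− mouse 3 (12%). The median of the neuron type, -0.22, was -0.33 with TPM as deposited, -0.31 with a pseudocount of 0.1, and -0.09 both with all genes above 0 and with a mean of at least 2 TPM, the first adding RIMS1 and the second dropping the scarcest genes. With TPM as deposited the endocrine type was at -0.14 and the widespread type at -0.09, where all genes shift by -0.12. Without a mouse the endocrine type ranged from -0.03 to 0.09.

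With TPM as deposited 22 of the 52 members turned sign, leaving 46 below 0 against 88.1% of all genes. Among the genes given for every mouse these were SYT7 (-0.11), VAMP2 (-0.11), VAMP8 (-0.09), CPLX2 (-0.14), UNC13B (-0.09), RAB3A (-0.04), RPH3AL (-0.09), NAPA (-0.07), DNM2 (-0.06), SV2A (-0.10) and SYP (-0.10), and the RIMS1 to RIMS2 ratio turned too (0.12). Leaving out a mouse turned 2 to 11 of the 52 members, and among the same genes SYT7 (-0.03 to 0.16), VAMP8 (-0.05 to 0.14), CPLX2 (-0.06 to 0.10), UNC13A (-0.21 to 0.06), UNC13B (-0.05 to 0.11), RIMS2 (-0.11 to 0.10), RAB3B (-0.33 to 0.16), RAB27A (-0.11 to 0.07), SV2A (-0.02 to 0.11) and SYP (-0.04 to 0.09) in at least 1 case each, none of them called. The cause was not tested. CPLX1, DNM1, SYT1, SV2C, SYT17, NCS1 and CADPS2 stayed below 0 and SYTL4 and SYT13 above 0 in every setting that tested them. Of these, SYTL4 kept an unadjusted p under 0.05 in 8 of 14 settings and CADPS2 in 5. Without a mouse the paralog ratios have too few splits to reach 0.05. No paired analysis was possible because replicate numbers are in accession order and only name the mice. Without reads per gene, counting error of members under 5 TPM is not separated from the spread between mice.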
